A study of Homo sapiens with 6 samples.

Results

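The genes followed here are 9 that are used to describe glioma stem cells and glial lineages, measured in LN229 by RNA sequencing: the transcription factor genes SOX2, SOX4, SOX9, OLIG2, SALL2 and POU3F2, the receptor gene PTPRZ1, and the intermediate filament genes NES and VIM. They were chosen by symbol, with earlier results of these data known, and all 9 were among the 28265 genes in the authors' count tables. LN229 is a long-established glioblastoma line of human origin, and the 6 libraries came from cells grown in serum-containing medium. Of these, 3 carried the genotype label WT and are called control here, and 3 carried the label TRIM25 knockdown, which the series design attributes to a short hairpin RNA (shTRIM25). Control titles include an unexplained NC, so whether these cells held a non-targeting hairpin is not given. The number of clones or hairpins is not given either, nor whether libraries of a group were separate cultures. The p-values therefore measure the spread between these libraries, which may be technical.

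The targeted gene went against the label. TRIM25, which encodes an E3 ubiquitin ligase, stood at 35.6 ± 0.243 CPM (counts scaled to a common library total with TMM factors; SD, n = 3) in the control libraries and 82.9 ± 4.84 CPM (SD over 3) in the knockdown-labelled libraries. In GENCODE v29 an antisense gene overlaps 538 bp of TRIM25 exon, and C17orf67 shares 132 bp on the same strand. Every direction below is that of the knockdown label against control, and none can be read as an effect of lower TRIM25 mRNA. Library totals ran from 11349865 to 16404725 counts. After a filter on low counts 14315 genes were tested, of which 23.3% were called by edgeR (Benjamini-Hochberg adjusted p under 0.05), 12.2% as higher and 11% as lower. On the second principal component knockdown-labelled replicate 1 lay at -19.8, apart from the other 5. The astrocyte markers GFAP, AQP4 and ALDH1L1 were at or near 0. They had 23, 3 and 0 counts summed over the control libraries and 12, 2 and 0 over the knockdown-labelled libraries. Other astrocyte markers were expressed: of the 18 in the list used below 11 passed the filter. The list summed to between 549 and 598 FPKM in the control libraries, most of it from S100B.

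SOX2, OLIG2, SALL2 and POU3F2 (also called BRN2) are known as a core set of factors that can together return differentiated glioblastoma cells to a stem-like state. SOX proteins bind DNA through an HMG box, POU proteins through a POU domain, SALL2 through zinc fingers and OLIG2 as a basic helix-loop-helix factor of the oligodendrocyte lineage. PTPRZ1 is a receptor tyrosine phosphatase of glial progenitors that binds the growth factor pleiotrophin. Nestin, encoded by NES, and vimentin, encoded by VIM, form the filaments of neural progenitors, and vimentin is also abundant in mesenchymal cells.

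The promoters of the 2 transcription factor genes with the smallest p-values among those that fell (SOX2 and SOX4) are shown with those of the 2 members that rose (PTPRZ1 and NES). Each is the 250 bases that end just before the RefSeq start site, read 5′ to 3′ on the gene's strand in GRCh38.p14, a later build than the hg19 named for the files. Capitals mark CCAAT on either strand (the CCAAT box, bound by NF-Y) and ACAAT on either strand (a core of SOX binding sites).
SOX2, chr3:181711675-181711924, plus strand: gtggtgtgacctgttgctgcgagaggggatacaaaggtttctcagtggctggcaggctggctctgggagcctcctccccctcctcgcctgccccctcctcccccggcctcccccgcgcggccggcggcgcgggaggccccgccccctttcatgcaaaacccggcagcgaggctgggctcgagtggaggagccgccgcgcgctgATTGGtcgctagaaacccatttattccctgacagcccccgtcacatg
SOX4, chr6:21593501-21593750, plus strand: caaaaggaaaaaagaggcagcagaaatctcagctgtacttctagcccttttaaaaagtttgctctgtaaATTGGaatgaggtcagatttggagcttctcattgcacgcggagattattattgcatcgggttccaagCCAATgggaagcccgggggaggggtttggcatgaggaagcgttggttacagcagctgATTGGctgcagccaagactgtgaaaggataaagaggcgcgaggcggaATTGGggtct
PTPRZ1, chr7:121872911-121873160, plus strand: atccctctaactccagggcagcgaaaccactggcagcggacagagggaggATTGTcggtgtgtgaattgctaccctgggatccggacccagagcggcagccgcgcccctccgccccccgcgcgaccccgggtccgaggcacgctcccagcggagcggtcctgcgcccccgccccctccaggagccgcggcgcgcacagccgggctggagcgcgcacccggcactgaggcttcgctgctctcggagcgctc
NES, chr1:156677408-156677657, minus strand: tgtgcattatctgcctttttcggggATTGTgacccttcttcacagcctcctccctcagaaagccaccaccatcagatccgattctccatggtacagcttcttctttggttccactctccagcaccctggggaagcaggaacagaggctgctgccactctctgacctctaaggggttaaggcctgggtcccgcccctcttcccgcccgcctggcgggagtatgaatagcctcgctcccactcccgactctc
The CCAAT box occurred 4 times in the SOX4 window, at -181, -114, -57 and -10 counted from the start site, and once in the SOX2 window, at -47. POU3F2 held 2 copies and PTPRZ1, NES, VIM and SALL2 held 0. Of 34788 distinct RefSeq promoter windows of this length 32.0% held at least 1. ACAAT occurred once each in the PTPRZ1, NES and SALL2 windows and not in those of SOX2, SOX4, POU3F2 or VIM, against 24.7% of all windows. None of the 7 windows held the POU octamer ATGCAAAT (1.62% of all windows) or TATAAA (10.8%). These matches describe letters and not binding. The SOX2, POU3F2 and PTPRZ1 windows were rich in G and C, at 68.8%, 69.2% and 73.2%, against a median of 58.0% over all windows. Those of SOX4, SALL2 and VIM held 48.8%, 46.0% and 46.0%, and that of NES held 58.0%. OLIG2 and SOX9 had no entry in the promoter table used here.

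Levels per gene length differed widely among the members. In the control libraries VIM stood at 1617 ± 69.8 FPKM (the authors' count scaled to gene length and library total; SD, n = 3) and NES at 110 ± 1.29 FPKM. SOX2 was the most abundant of the 6 transcription factor genes at 69.3 ± 1.52 FPKM, followed by SOX4 at 28.1 ± 0.435 FPKM. PTPRZ1 stood at 17.8 ± 1.64, POU3F2 at 5.58 ± 0.0797, OLIG2 at 3.05 ± 0.503, SALL2 at 0.945 ± 0.145 and SOX9 at 0.232 ± 0.0903 FPKM. No 2 neighbours in this order overlapped across the control libraries. SOX2 thus lay above 93.3% of tested genes by control level and OLIG2 above 29.5%. In the knockdown-labelled libraries the order was the same except for PTPRZ1 and SOX4, which stood at 23.3 ± 1.41 and 21.7 ± 0.643 FPKM and overlapped.

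**Figure D1:**
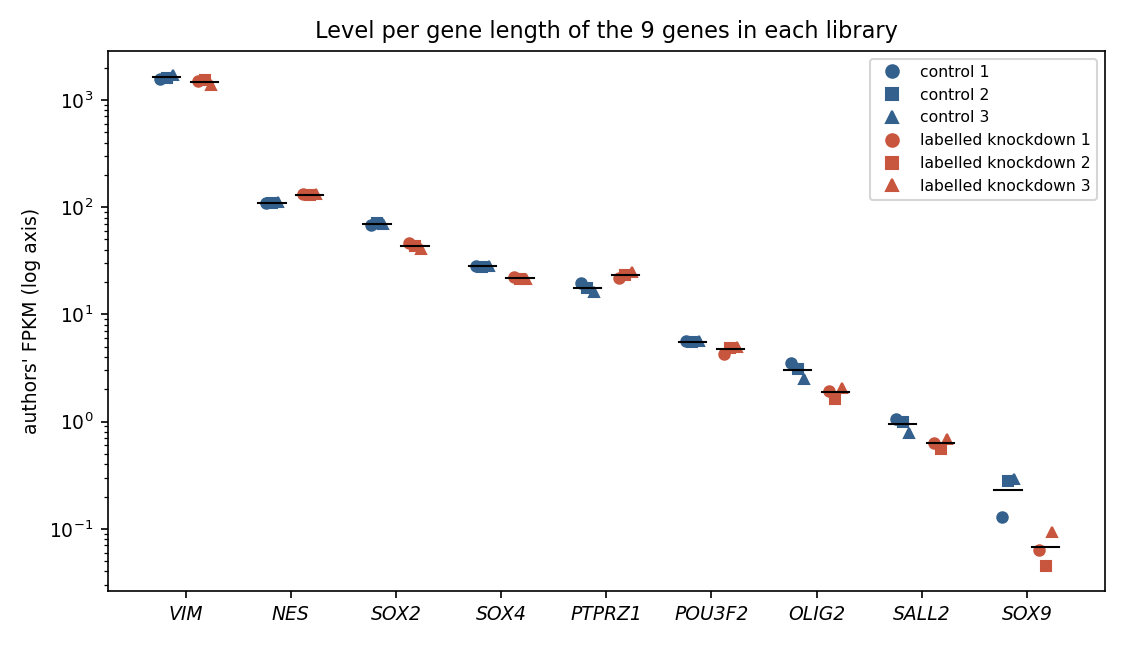
Level per gene length (the authors' FPKM, log axis) of the 9 genes in each of the 6 libraries; points are libraries, short black lines are group means. SOX4 lies above PTPRZ1 in the control libraries (28.1 against 17.8 FPKM), and the pair overlaps in the knockdown-labelled libraries.

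In CPM the 6 transcription factor genes and VIM were lower, and PTPRZ1 and NES higher, in every knockdown-labelled library than in any control library. Of the 8 members that passed the filter, 4 fell (SOX2, SOX4, OLIG2, SALL2), 2 rose (PTPRZ1, NES) and 2 did not pass the test (POU3F2, VIM), beside 23.3% of all tested genes called. Because the members were picked with results known, these counts describe them and are no test. The median log2 fold change of the 8 was -0.30, against 0.00 (-0.0038) over all tested genes. In each of the 9 members, SOX9 included, the 2 groups did not overlap in CPM, 7 lower and 2 higher, while 37.3% of tested genes showed no overlap, 19% lower and 18.3% higher. Because the RNA came from bulk cultures, fewer cells with a transcript and less transcript per cell cannot be told apart.

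**Figure D2:**
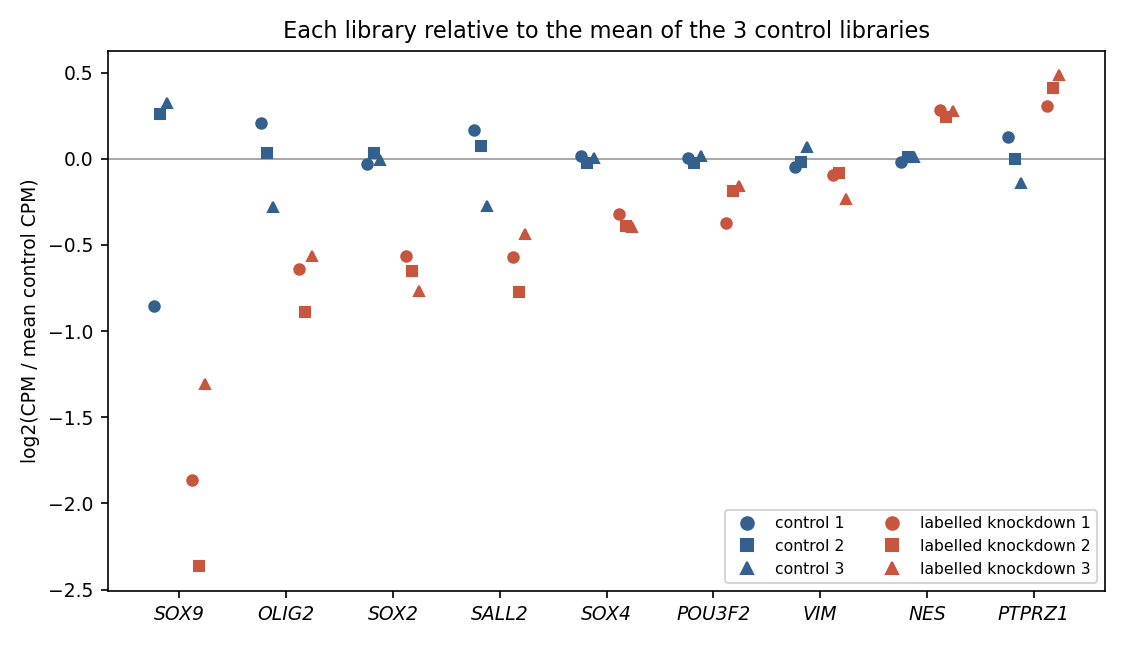
Level of each gene in each library as log2 of its CPM over the mean CPM of the 3 control libraries; colours are groups and symbols are library numbers. The 3 knockdown-labelled libraries sit below all control libraries for 7 genes and above them for NES and PTPRZ1.

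SOX2, a factor of neural stem cells, fell 1.58-fold. Control libraries stood at 170, 178 and 173 CPM, and 117, 110 and 102 CPM were measured in the knockdown-labelled libraries. The lowest control library lay well above the highest of the other group. The log2 fold change was -0.66 ± 0.06 (SE; 95% interval -0.79 to -0.53; edgeR adjusted p = 1.45e-06), lower than that of all but 3.07% of tested genes. SOX2 lies inside SOX2-OT, a long noncoding RNA gene on the same strand with which it shares no exon in GENCODE v29. SOX2-OT, picked after its value was seen, stood at 29.1, 31.5 and 32.1 CPM in the control libraries and at 18.1, 20.0 and 20.9 CPM in the knockdown-labelled libraries. Its log2 fold change was -0.65 ± 0.09 (SE; edgeR adjusted p = 4.05e-05), of nearly the size seen for SOX2.

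SOX4, a SOX factor of progenitors and of cells responding to TGF-beta, fell by less. It stood at 138, 134 and 137 CPM in the control libraries and at 109, 104 and 104 CPM in the knockdown-labelled libraries. These were tight groups, with coefficients of variation of 1.51% and 2.90%, close to the 2.20% and 2.71% that counting alone would give. The log2 fold change was -0.37 ± 0.06 (SE; edgeR adjusted p = 0.000262), a 1.29-fold fall. In GENCODE v29, 168 bp of SOX4 exon are overlapped by an antisense gene, and the strand setting of the counting is not given. Within each library the FPKM of SOX4 relative to SOX2 was 0.420, 0.390 and 0.409 in the control group and 0.481, 0.488 and 0.525 in the other. That ratio needs no scaling between libraries, and its groups did not overlap. Because SOX2 fell by more than SOX4, the ratio is higher by arithmetic and is no separate result.

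SOX9, a factor of glial fate and of astrocytes, was barely detected. In raw reads it had 8, 15 and 18 among control and 3, 2 and 6 among knockdown-labelled libraries, which did not pass the filter. Summed over the libraries this was 41 counts (exact Poisson 95% interval 29.4 to 55.6) against 11 (5.49 to 19.7). In summed counts scaled to depth the knockdown-labelled level was 0.306 of the control level (exact Clopper-Pearson 95% interval 0.142 to 0.606, counting error only). Without the filter its edgeR log2 fold change was -1.66 (adjusted p = 0.00601). SOX9 entered 4 of the fits that left out 1 library, and missed the threshold in that without knockdown-labelled replicate 2 (log2 fold change -1.48, adjusted p = 0.0742). It entered them through the control group alone, so these fits give no support of their own.

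Other SOX genes did not share one direction. Of 16 further SOX genes 6 were tested, of which 2 rose, 1 fell and 3 did not pass, with a median log2 fold change of -0.01. For this list and those below, the shares over all tested genes were 12.2% higher and 11% lower. Calls of higher SOX genes numbered 0 without control replicate 2 and 1 without control replicate 3 or knockdown-labelled replicate 2 or 3, and those of lower ones 2 without control replicate 1. SOX10, the oligodendrocyte and neural crest factor, was the most abundant SOX gene at 299 FPKM in the control group and 344 FPKM in the other. It rose by 0.21 ± 0.06 on the log2 scale (SE; edgeR adjusted p = 0.0182), but missed the threshold without control replicate 2 (adjusted p = 0.105). Its 3 knockdown-labelled libraries were uneven, at 1107, 955 and 930 CPM, against 866, 836 and 884 CPM in the control group. SOX13 rose by 0.32 ± 0.10 (SE), but missed the threshold on leaving out control replicate 2 (adjusted p = 0.137) or 3 (0.0518) and without knockdown-labelled replicate 2 (0.0505) or 3 (0.0528). SOX12, of the same subgroup as SOX4, fell from 108 ± 4.29 to 83.5 ± 4.31 CPM (SD over 3 libraries each), a log2 fold change of -0.37 ± 0.06 (SE; edgeR adjusted p = 0.000554). SOX1 and SOX3, the closest relatives of SOX2, had 0 counts in all 6 libraries.

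OLIG2 fell 1.6-fold, from a low level. It stood at 8.68, 7.69 and 6.20 CPM in the control libraries and at 4.83, 4.07 and 5.09 CPM in the knockdown-labelled libraries. The lowest control library lay above the highest of the other group by 1.22 times in CPM. In raw reads this gave 138, 106 and 98 against 58, 46 and 83, and the log2 fold change was -0.67 ± 0.16 (SE; 95% interval -1.0 to -0.35; edgeR adjusted p = 0.00482). Its neighbouring paralog OLIG1, named after its values were seen, had 8, 11 and 13 counts in control and 1, 0 and 0 in the knockdown-labelled libraries, too few for the filter. Scaled to depth, the OLIG1 level was 0.0356 of control (exact Clopper-Pearson 95% interval 0.000875 to 0.213, counting error only). Both OLIG genes were lower in the knockdown-labelled libraries, but only OLIG2 was abundant enough to be tested. The few counts of OLIG1 give the fall of OLIG2 no support of their own.

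SALL2, a zinc finger factor, stood at 5.41, 5.08 and 3.99 CPM in the control libraries and at 3.25, 2.83 and 3.56 CPM in the knockdown-labelled libraries. The groups came close, with the lowest control library 1.12 times the highest of the other group. Its log2 fold change was -0.57 ± 0.18 (SE; edgeR adjusted p = 0.0267), a 1.48-fold fall. SALL2 missed the threshold on leaving out control replicate 1 (adjusted p = 0.0985) or 2 (0.0948) or knockdown-labelled replicate 2 (0.111), and with DESeq2 (0.0754). An antisense gene overlaps 472 bp of its exons.

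POU3F2, a neural POU factor, stood at 27.3, 26.8 and 27.5 CPM in the control libraries and at 21.0, 23.9 and 24.4 CPM in the knockdown-labelled libraries. The control libraries were nearly equal and knockdown-labelled replicate 1 was the lowest. The log2 fold change was -0.23 ± 0.08 (SE; 95% interval -0.41 to -0.06), and POU3F2 narrowly missed the threshold (edgeR adjusted p = 0.0504). It passed with upper quartile factors (adjusted p = 0.0334), a filter at 1 CPM (0.0480), limma-voom (0.0497), length and GC offsets (0.00448) and without knockdown-labelled replicate 3 (0.0444). Of the 19 other POU, SALL and OLIG genes in the list, 5 were tested and 0 were called by edgeR, DESeq2 or limma-voom, with 1 at an unadjusted p under 0.05. Leaving out 1 library let 1 be called higher in the fits without control replicate 1 or knockdown-labelled replicate 1, and 1 lower without control replicate 1 or any knockdown-labelled replicate. The fits with 1 lower are those that SOX9 also entered, through the control group alone. Whether the gene called lower entered in that way was not tested, so its call gives no support of its own. Of the 5 tested genes SALL1, nearest to the threshold, stood at 0.21 on the log2 scale (adjusted p = 0.0781, unadjusted p = 0.0219).

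**Figure D3:**
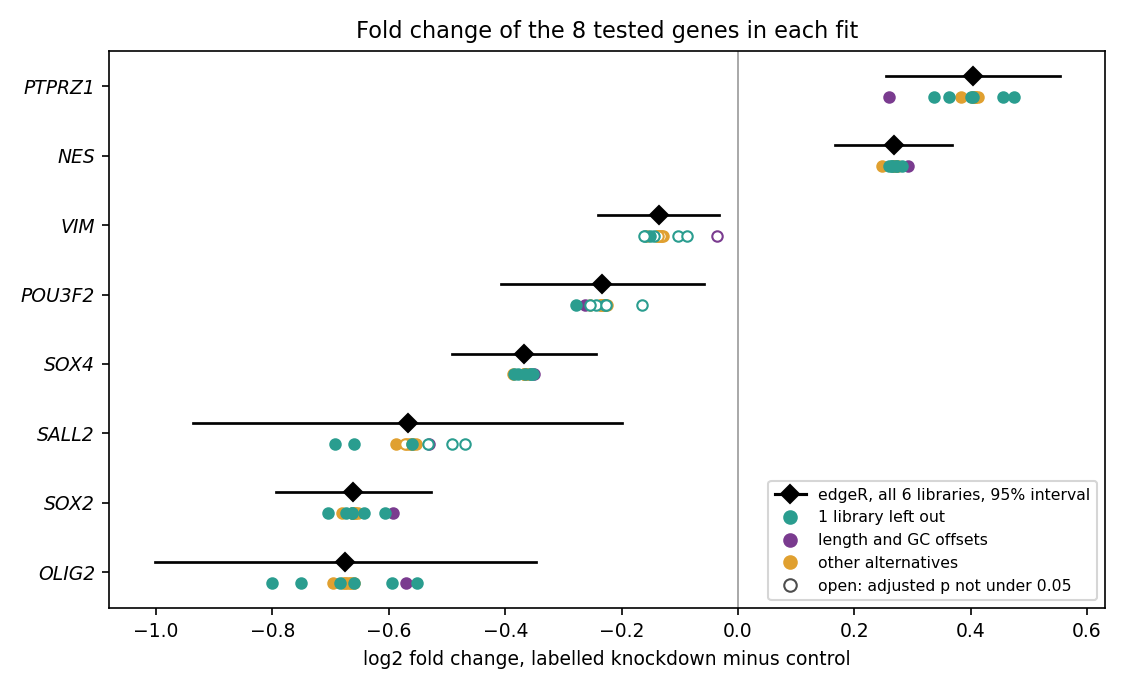
Log2 fold change of the 8 tested genes (labelled knockdown minus control) in the edgeR fit with its 95% interval (diamonds) and under each alternative (circles; open where adjusted p is not under 0.05). The circles of SOX2, SOX4, OLIG2, NES and PTPRZ1 are all filled, while those of SALL2, POU3F2 and VIM are mixed.

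PTPRZ1 rose 1.32-fold. The control libraries stood at 159, 146 and 132 CPM, and the knockdown-labelled libraries at 180, 194 and 204 CPM. The groups did not overlap, but the control libraries were spread by a coefficient of variation of 9.31%, above the 2.14% of counting error. The log2 fold change was 0.40 ± 0.07 (SE; edgeR adjusted p = 0.000599). PTPRZ1 is the longest member at 8206 bp and has the lowest GC content at 38.8%, and the 2861 tested genes of its length class (1 of 5 equal classes; 6306 to 93098 bp) had a median log2 fold change of 0.11. With offsets for length and GC content its log2 fold change was 0.26 (edgeR adjusted p = 3.30e-05). Within each library the FPKM of PTPRZ1 relative to SOX2 was 0.286, 0.251 and 0.233 in the control group and 0.469, 0.537 and 0.611 in the other. The 2.10-fold difference between group means joins the rise of PTPRZ1 to the fall of SOX2 and is no separate result.

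The ligands and partners of PTPRZ1 did not rise with it as a group. Of 15 tested genes 3 rose, 4 fell and 8 did not pass, with a median log2 fold change of -0.04. The rises numbered 1 without control replicate 2 or 3 or knockdown-labelled replicate 2 or 3, and the falls 2 without control replicate 2 or knockdown-labelled replicate 2. PTN, which encodes the ligand pleiotrophin and was named after its value was seen, stood at 286 ± 8.10 and 251 ± 7.53 CPM (SD, n = 3 each; log2 fold change -0.19; edgeR adjusted p = 0.0202). PTN missed the threshold on dropping control replicate 2 (adjusted p = 0.116) or 3 (0.0863), or on dropping knockdown-labelled replicate 2 (0.0627) or 3 (0.0654). MDK, which encodes the related ligand midkine, had a log2 fold change of -0.04 ± 0.08 (SE). SDC3, which encodes the pleiotrophin-binding proteoglycan syndecan 3, fell from 533 ± 8.91 to 401 ± 13.5 CPM (SD over 3 libraries each; edgeR, adjusted p = 2.39e-05). The kinase gene FYN fell by 0.29 on the log2 scale, and NFASC, which encodes the adhesion protein neurofascin, rose by 0.31. CNTN1, which encodes contactin 1, had a log2 fold change of -0.35, which was called but missed the threshold on leaving out control replicate 1 (adjusted p = 0.0698) or 2 (0.147) or knockdown-labelled replicate 2 (0.124). NRCAM and MAGI3 (log2 fold changes 0.23 and 0.33), though called, missed the threshold on leaving out control replicate 2 (adjusted p = 0.0858 and 0.0615) or 3 (0.142 and 0.211). They also missed it without knockdown-labelled replicate 2 (adjusted p = 0.102 and 0.0652) or 3 (0.0999 and 0.158). With length and GC offsets NRCAM stood at 0.096 (adjusted p = 0.0762), and with DESeq2 MAGI3 missed the threshold (adjusted p = 0.0575).

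NES rose 1.20-fold with little spread, at coefficients of variation of 1.12% and 1.64%. It stood at 601, 613 and 613 CPM in the control libraries and at 742, 719 and 738 CPM in the knockdown-labelled libraries. The log2 fold change was 0.27 ± 0.05 (SE; edgeR adjusted p = 0.000727). For this gene length and GC offsets left the value at 0.29. Per library, the FPKM of NES relative to SOX2 was 1.59, 1.56 and 1.60 in the control group and 2.85, 2.94 and 3.26 in the other. The ratio of group means was 1.91. Because NES rose and SOX2 fell, it is larger than the change of either gene by arithmetic, and is no separate result.

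VIM stood at 3357, 3430 and 3638 CPM in the control libraries and at 3256, 3278 and 2954 CPM in the knockdown-labelled libraries. The lowest control library was only 1.02 times the highest of the other group. Its log2 fold change was -0.14 ± 0.05 (SE; 95% interval -0.24 to -0.03), which missed the threshold (edgeR adjusted p = 0.0557). With length and GC offsets it was -0.04 (adjusted p = 0.433), but VIM passed with limma-voom (adjusted p = 0.0429), upper quartile factors (0.0412) and no filter (0.0241). It also passed without control replicate 1 (adjusted p = 0.0469) or knockdown-labelled replicate 1 (0.0157). VIM shares 641 bp of exon with VIM-AS1 on the opposite strand, whose log2 fold change was -0.01 ± 0.08 (SE).

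Among other intermediate filament and linker genes 5 of 14 tested rose, 2 fell and 7 did not pass (median 0.07). The rises numbered 3 without control replicate 2 or 3 or knockdown-labelled replicate 2, and 8 with length and GC offsets. The large linker genes DST and PLEC, which encode dystonin and plectin, rose (log2 fold changes 0.66 and 0.33), and the filament gene BFSP1 rose by 0.45. NEFL, which encodes the light neurofilament, stood at 2.11 ± 0.897 and 0.293 ± 0.102 CPM (SD over 3 libraries each), with 94 counts in all control libraries and 12 in the others. It passed the filter through the control group alone, so its call as lower gives no support of its own. LMNA, which encodes lamin A and C, fell by 0.29 on the log2 scale. An antisense gene overlaps 490 bp of NEFL exon.

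**Figure D4:**
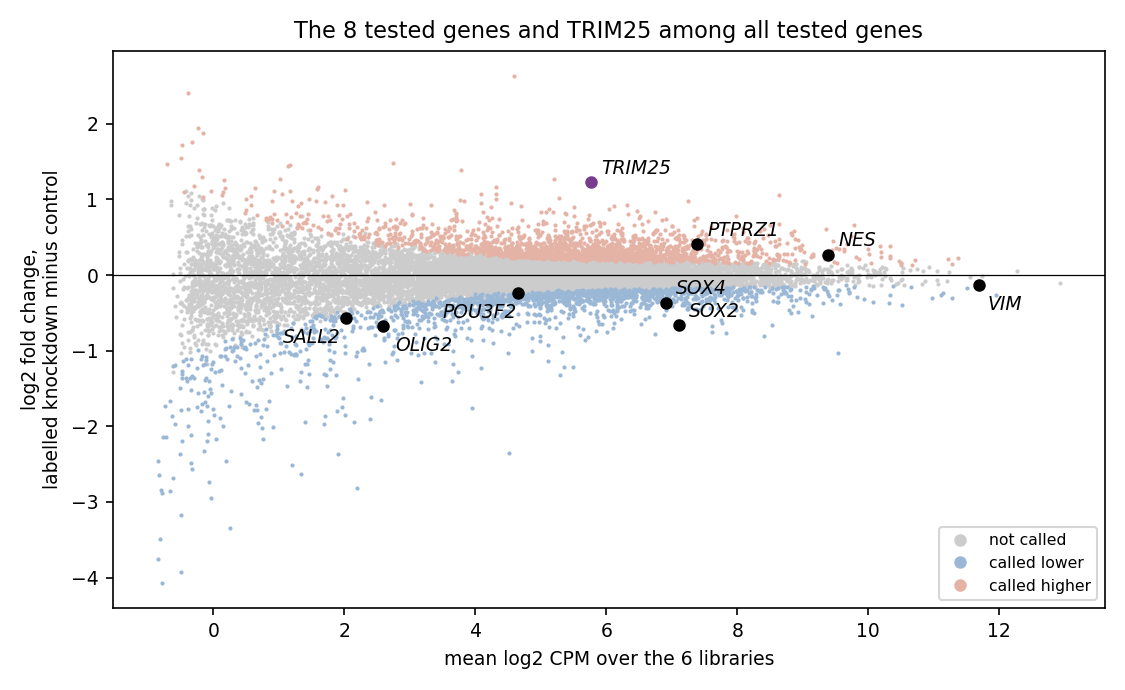
Log2 fold change against mean log2 CPM for the 14315 tested genes (called lower, called higher or not called by edgeR), with 8 of the 9 genes in black and TRIM25 in purple. SOX2 lies at -0.66, below most genes, and VIM at -0.14, near the line at 0.

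Gene length moved with fold change across all genes, which touches each member, and its part in the members' differences was examined through offsets for length and GC content. The median log2 fold change was -0.11 in the shortest of the 5 length classes (55 to 1941 bp) and 0.11 in the longest. SOX2 (2511 bp) and OLIG2 (2475 bp) lie in a class with a median of -0.05, and SOX4, SALL2, POU3F2 and NES in one with a median of 0.05. With the offsets SOX2 stood at -0.59, OLIG2 at -0.57, SOX4 at -0.35, SALL2 at -0.53 and POU3F2 at -0.26. PTPRZ1 moved from 0.40 to 0.26 and VIM from -0.14 to -0.04, while NES stood at 0.29. The 4 that fell and the 2 that rose kept their calls in that fit. It also called more genes over all, 2573 higher and 2056 lower against 1753 and 1577 without the offsets.

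Genes with a profile over the 6 libraries like that of the 3 called members of lowest adjusted p were sought among 11141 protein-coding genes. Likeness was the root mean square difference of centred log2 CPM. Nearest to SOX2 were AKR1C1 (0.0459) and TUBA1A (0.0470), which both have near-identical paralogs that can share reads. ST6GALNAC6 (0.0168) and MAGED1 (0.0174) were nearest to SOX4. For PTPRZ1 they were ADAMTS12 (0.0206) and PLEKHM3 (0.0234). The members' own profiles had root mean squares of 0.336, 0.185 and 0.223, each several times its distance to these genes.

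In the list of other neural and glioma stem cell genes 5 of 24 tested rose, 3 fell and 16 did not pass (median 0.05). The falls numbered 1 without control replicate 2 or 3 or knockdown-labelled replicate 2. HMGA2, a chromatin protein gene of embryonic and stem cells, rose 1.67-fold from 40.8 ± 0.420 to 68.1 ± 4.91 CPM (SD over 3 libraries each; edgeR, adjusted p = 1.45e-06). ZEB1, an inducer of epithelial-mesenchymal transition, rose by 0.47 and ARNT2 by 0.39 on the log2 scale. Antisense genes overlap HMGA2, ZEB1 and ARNT2 by 384, 366 and 139 bp of exon. L1CAM, which encodes a neural adhesion molecule, fell 1.44-fold from 142 ± 5.13 to 98.6 ± 3.72 CPM (SD over 3 libraries each). Other gene models share 439 bp of its exons on its strand and 359 bp on the opposite one. LHX2 and KLF4 (log2 fold changes -0.37 and -0.31), though called, missed the threshold on leaving out control replicate 2 (adjusted p = 0.0673 and 0.0655) or 3 (0.112 and 0.0606) or knockdown-labelled replicate 2 (0.102 and 0.0964). KLF4 also missed it without control replicate 1 (0.0509) or knockdown-labelled replicate 3 (0.0924). PROM1, which encodes CD133, had 13 and 11 counts per group and was not tested. The neural factor gene PAX6, singled out after its values were seen, had 10, 12 and 9 counts in control and 0, 2 and 0 in the knockdown-labelled libraries. ELP4 on the opposite strand shares 5241 bp of PAX6 exon.

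Oligodendrocyte lineage genes, the lineage of OLIG2, moved both ways: of 11 tested 3 rose, 3 fell and 5 did not pass (median -0.18). MAG, a myelin adhesion gene, rose 1.79-fold from 23.9 ± 1.21 to 43.0 ± 4.97 CPM (SD over 3 libraries each; edgeR, adjusted p = 4.82e-06). The progenitor proteoglycan gene CSPG4 rose 1.5-fold, and an antisense gene overlaps 563 bp of its exons. MBP, which encodes myelin basic protein, fell 3.74-fold from 9.84 ± 0.305 to 2.64 ± 0.171 CPM (SD over 3 libraries each; edgeR, adjusted p = 1.31e-07). Other gene models share exon with MBP, 1630 bp on the opposite and 359 bp on the same strand. CNP fell by 0.27 on the log2 scale and shares 401 bp with DNAJC7 on the other strand.

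Among astrocyte markers 4 of 11 tested fell, 0 rose (also 0 with DESeq2, limma-voom or at an unadjusted p under 0.05) and 7 did not pass (median -0.26). The falls numbered 2 without knockdown-labelled replicate 2. CLU fell 1.78-fold and S100B, at 461 FPKM in the control group, 1.26-fold. The APOE log2 fold change was -0.46, which was called but missed the threshold on leaving out control replicate 2 (adjusted p = 0.0911) or knockdown-labelled replicate 2 (0.0913) or 3 (0.0891). Of 9 tested neuronal markers 5 fell, 1 rose and 3 did not pass (median -0.22). Over all tested genes 11% were called lower and 12.2% higher. The neuronal falls numbered 3 without control replicate 2 or 3 or knockdown-labelled replicate 2. With the replicate block they also numbered 3, and the rises 0. The homeobox genes DLX2 and DLX1 fell 2.0-fold and 1.61-fold, and SNAP25 fell by 0.38 on the log2 scale. SYT1 had a log2 fold change of 0.27, which was called but missed the threshold on leaving out control replicate 2 (adjusted p = 0.0938) or 3 (0.118) or knockdown-labelled replicate 2 (0.0898) or 3 (0.0748).

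Of 27 tested mesenchymal state genes 11 fell, 3 rose and 13 did not pass (median -0.08), beside 11% lower and 12.2% higher over all tested genes. The falls numbered 6 without control replicate 2 or knockdown-labelled replicate 2, and the rises 1 without control replicate 2. ANXA1 fell 1.38-fold from 522 ± 13.6 to 379 ± 10.2 CPM (SD over 3 libraries each; edgeR, adjusted p = 7.44e-06). The transcription factor genes CEBPD and SNAI1 fell (log2 fold changes -0.52 and -0.41), and the caveolin gene CAV1 rose by 0.23. EMP1 and RUNX1 (log2 fold changes 0.25 and 0.22), though called, missed the threshold on leaving out control replicate 2 (adjusted p = 0.0685 and 0.0771). EMP1 also missed it without knockdown-labelled replicate 2 (0.0639), and RUNX1 without control replicate 3 (0.0729) or knockdown-labelled replicate 3 (0.0841). CD44, a receptor used to mark mesenchymal glioma cells, had a log2 fold change of 0.02 (edgeR adjusted p = 0.789).

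**Figure D5:**
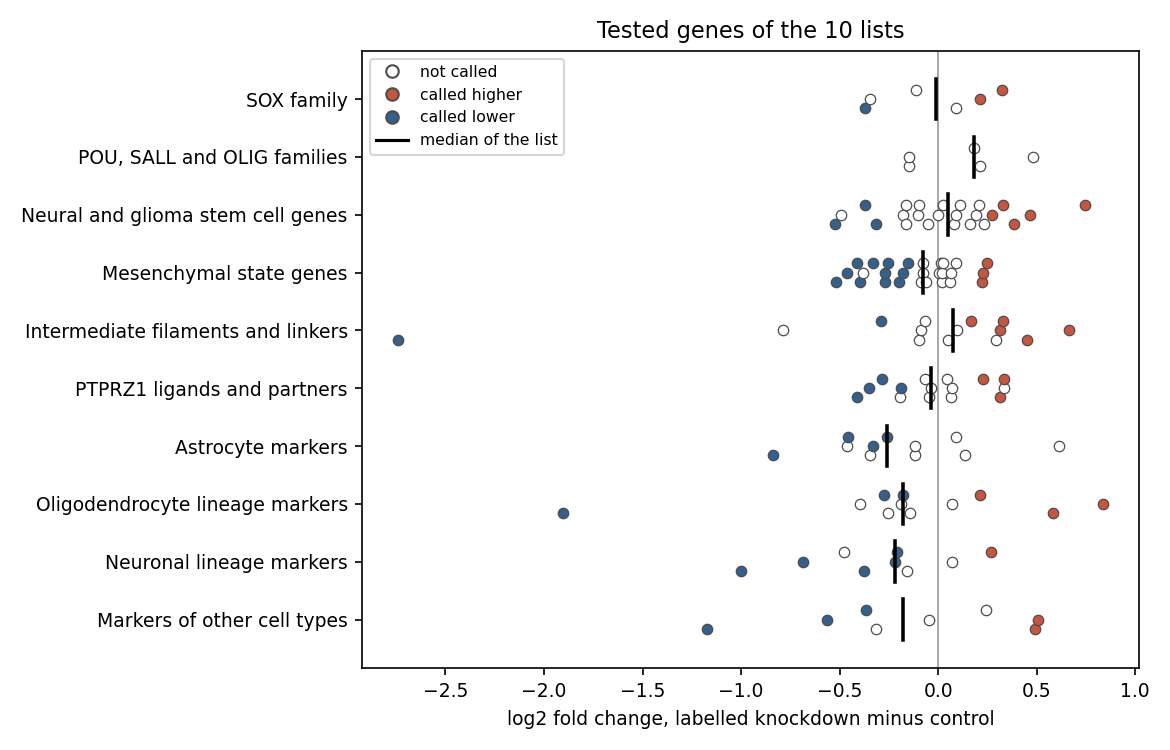
Log2 fold change of the tested genes of the 10 lists (points; filled where called by edgeR), with the median of each list as a black line. The astrocyte, oligodendrocyte and neuronal lists have medians of -0.26, -0.18 and -0.22, and the list of other cell types one of -0.18. Those of the mesenchymal, PTPRZ1 partner and SOX lists are -0.08, -0.04 and -0.01. The stem cell, filament and POU, SALL and OLIG lists have 0.05, 0.07 and 0.18.

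The 21 markers of other cell types (microglia, endothelium, pericytes, fibroblasts and the like) summed to between 134 and 139 CPM in the control libraries and between 136 and 150 CPM in the knockdown-labelled libraries. Of 8 tested 2 rose and 3 fell (median -0.18; 1 fell without control replicate 2 or 3 or knockdown-labelled replicate 2, and 1 with DESeq2), and the microglial genes AIF1 and TYROBP had 0 counts in all libraries. CD68, a lysosomal gene, rose by 0.49 and shares 1789 bp of exon with another gene model, and the pericyte gene RGS5 rose by 0.50 on the log2 scale. DCN, a fibroblast proteoglycan gene, fell 2.25-fold. COL1A1 and PDGFRB (log2 fold changes -0.56 and -0.37), though called, missed the threshold on leaving out control replicate 2 (adjusted p = 0.0813 and 0.126) or 3 (0.0642 and 0.0606) or knockdown-labelled replicate 2 (0.134 and 0.0610). PDGFRB also missed it without control replicate 1 (0.050) or knockdown-labelled replicate 3 (0.101). The part of these genes in the differences above was not tested.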

How the data were processed

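The 6 LN229 libraries were stranded total RNA, per the labels' protocols. The tools HISAT2, Trim Galore, MultiQC and FastQC and the build hg19 come from the submitters' processing notes. How reads were counted (program, strand, annotation) is not given in the sources used here. The deposited counts are whole reads per gene, neither normalised nor pooled. The authors' FPKM divides the count by gene length and total count, and the authors' TPM is that FPKM rescaled to 1000000. Gene lengths recovered from FPKM were whole numbers (within 0.001 bp) for all 21754 genes with counts.

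Counts were fitted in R 4.3.3 with edgeR 4.0.16: filterByExpr left 14315 genes, TMM factors lay between 0.995 and 1.00, and glmQLFTest used group as its only term over all 6 libraries. The standard error is the fold change divided by the square root of F. Alternatives were RLE and upper quartile factors, no filter, a filter at 1 CPM in 3 libraries, DESeq2 1.42.0, limma-voom (limma 3.58.1), a replicate block, length and GC offsets (splines with 5 degrees of freedom; GC from GENCODE v29 transcripts, known for 13816 tested genes and all 9 members) and leaving out each library. The test was checked on simulated data.

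The members and the 10 gene lists were chosen with earlier results of these data known. From each list the rule named up to 3 called genes with the largest rise and 3 with the largest fall. Other named genes lie outside it and count as picked after their values were seen, whether marked so or not. Among them are SOX2-OT, VIM-AS1, OLIG1, SALL1, PTN, MDK, PROM1, PAX6, CD44, GFAP, AQP4, ALDH1L1, SOX1, SOX3, AIF1 and TYROBP. A single result under this rule is not reported here. Exon overlaps come from GENCODE v29 (limit 100 bp), promoters from RefSeq GRCh38.p14 (7 of 9 members matched).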

Additional observations from a re-analysis of the deposited data

How the results depend on the processing

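Of 14 alternatives, SOX2, SOX4, OLIG2, NES, PTPRZ1 and TRIM25 kept their direction and their call in every one, and no member changed direction. The number of members called was 2 higher in every fit and between 3 and 6 lower. For SALL2 the log2 fold change was -0.57 with DESeq2 and -0.56 with the replicate block, both no longer called (adjusted p = 0.0754 and 0.0685), and between -0.69 and -0.47 without 1 library. POU3F2 passed at -0.25 with upper quartile factors, -0.23 with at least 1 CPM in 3 libraries, -0.23 with limma-voom and -0.26 with length and GC offsets, and ranged from -0.28 to -0.17 without 1 library. VIM passed at -0.16 with upper quartile factors, -0.13 without a filter and -0.14 with limma-voom, and ranged from -0.16 to -0.088 without 1 library. SOX9 passed without the filter at -1.66, and ranged from -2.03 to -1.48 in the fits without 1 library in which it entered, missing the threshold without knockdown-labelled replicate 2. It entered those fits through the control group alone. The cause of these changes was not tested. Over all genes 1753 were called higher and 1577 lower; with the replicate block 967 and 924 were, and without 1 library between 930 and 2622 and between 866 and 2319. The lowest counts came without control replicates 2 (930 and 896) and 3 (945 and 932) and knockdown-labelled replicate 2 (1002 and 866). Of the genes in the 10 lists 23 were called higher and 36 lower; with the replicate block 13 and 22 were, and without 1 library between 14 and 27 and between 21 and 39. Of these 59 called genes, 26 missed the threshold in 1 or more of the fits that left out a library. Libraries of the same number did not deviate together (correlations -0.191, 0.00821 and -0.217), so the numbers were not used as pairs, and no label says that they mark a shared batch. The fit that joins the block to the length and GC offsets was therefore not run. With the block, the named genes SOX10, SOX13, LHX2, KLF4, EMP1, CAV1 (adjusted p = 0.0502), RUNX1, MAGI3, NRCAM, CNTN1, PTN, SYT1, COL1A1 and PDGFRB were not called; with DESeq2, SOX13, LHX2, MAGI3, CNTN1, COL1A1 and PDGFRB were not. TPM is FPKM rescaled, so ratios between members are equal in both by construction. OLIG2, SALL2 and SOX9 had few counts: counting error alone gave coefficients of variation of 9.47%, 11.8% and 28.7% in the control libraries. Those measured in CPM were larger, at 16.6%, 15.4% and 38.8%, and the source of the further spread was not tested.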
